A study of Arabidopsis thaliana with 20 samples.

Results

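The transcripts described here are 58 loci of Arabidopsis thaliana that were high after dawn in light:dark cycles and had no clear dawn excess in constant light. They were chosen on the values themselves. D is the log2 ratio of the mean AM to the mean PM level in unstressed seedlings under light:dark cycles, and L is the same ratio over the constant light libraries. Levels are CPM (counts scaled to a common library total by edgeR's TMM method), with 1 CPM added before the ratio. A locus was kept with at least 10 CPM in the unstressed AM, a D of at least 2 and an L of at most 0.3. Of 33601 counted loci, 423 met the first 2 conditions and are called dawn-high transcripts below, and 58 of them (13.7%) also met the condition on L. The other 365 are used only for comparison.

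The seedlings were wild type, of the Columbia-0 accession, grown on agar plates at 23 °C with 12 h of light per day. Heat-shocked seedlings were held at 30 °C for 1 h from ZT 0.5 (AM) or ZT 12.5 (PM), where ZT is the time in hours after lights on, and controls stayed at 23 °C. Control AM, Control PM, Heat AM and Heat PM had 4 replicates each under light:dark cycles (diel libraries). The same 4 conditions had 1 library each after transfer to constant light (LL), so differences there have no replicate check and were not tested. In the diel design the AM seedlings were in light and the PM seedlings in darkness, so that time of day and light cannot be told apart, whereas all LL seedlings were in light. The sources used here do not state whether the replicates came from separate cultures, so p-values measure the spread between these libraries only. The protocol text names aerial tissue and the sample labels whole plants, so the presence of roots is not settled. In such bulk samples fewer cells of a type and less RNA per cell cannot be told apart.

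A plant transcript can be high after dawn because the circadian clock drives it, because light or the products of photosynthesis induce it, or because of both. The clock is a loop of transcription factors, in which CCA1 and LHY act in the morning and TOC1 in the evening, and it goes on running when the light no longer changes. Continuous light removes the daily dark period and keeps photosynthesis going. Rhythms driven by the clock can therefore persist there, while those driven by light alone do not. Samples at the AM and PM times alone do not show a rhythm whose levels are alike at those times. Heat shock factors and chaperones such as HSP101, which dissolves protein aggregates, are induced within minutes of warming in Arabidopsis.

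The diel libraries held between 14637914 and 38812441 reads counted on loci and the LL libraries between 8594948 and 19957156. The clock genes matched the time labels, since CCA1, LHY and PRR9 were higher in the AM and TOC1 in the PM with and without heat and in both light regimes. CCA1 held 310 CPM in Control AM and 1.92 in Control PM, and it kept a dawn excess in LL, with 342 and 41.2 CPM without heat. HSFA2, a heat-induced transcription factor, stood at 8.49 CPM in Control AM and 442 in Heat AM, and at 3.84 in Control PM and 299 in Heat PM. The unheated LL PM library also stood apart, with 49.4 CPM of HSFA2 and 72.5 of HSP101 against 6.56 and 16 in the unheated LL AM library. Among the diel libraries, replicates 1 and 2 deviated from their group means in the opposite direction to replicates 3 and 4, with a mean r of -0.503 between the pairs over 14817 genes, and the labels name no batch. Summed mesophyll markers were between 30600 and 93100 CPM. The 10 root markers summed to between 7.06 and 82 CPM, with medians of 65.1, 41.4, 28.9 and 17.8 CPM in Control AM, Control PM, Heat AM and Heat PM, and 9 flower and seed markers to between 1.69 and 13. The part of root material in the results was not tested.

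By choice, D was positive in each of the 58, with a median of 2.3 and a range of 2.02 to 4.16 (log2). The median of the other dawn-high transcripts was 2.76. L ran from -1.17 to 0.30 with a median of -0.04, against a median of 1.27 in the others. Just inside the limit on D lay AT3G24190, UGT75B1, AFP3 and UGT78D2, with D between 2.017 and 2.036, and just outside it FER1, SERAT2;1, FBH3 and GPAT3, with D between 1.934 and 1.966. Just inside the limit on L lay PAP17, TBL26, HB-12 and CP1, with L between 0.240 and 0.296. Just outside it lay AT3G21670, ELIP1, AT1G75280 and BMY3, with L between 0.306 and 0.339. The limits thus cut through a continuous range of values, and no gap sets the 58 apart. The loci lie on all 5 nuclear chromosomes. Some values within the set are not independent counts: AT1G72920 and TIR are neighbours on chromosome 1 with related products, and APR1 and APR3 are close relatives.

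**Figure D1:**
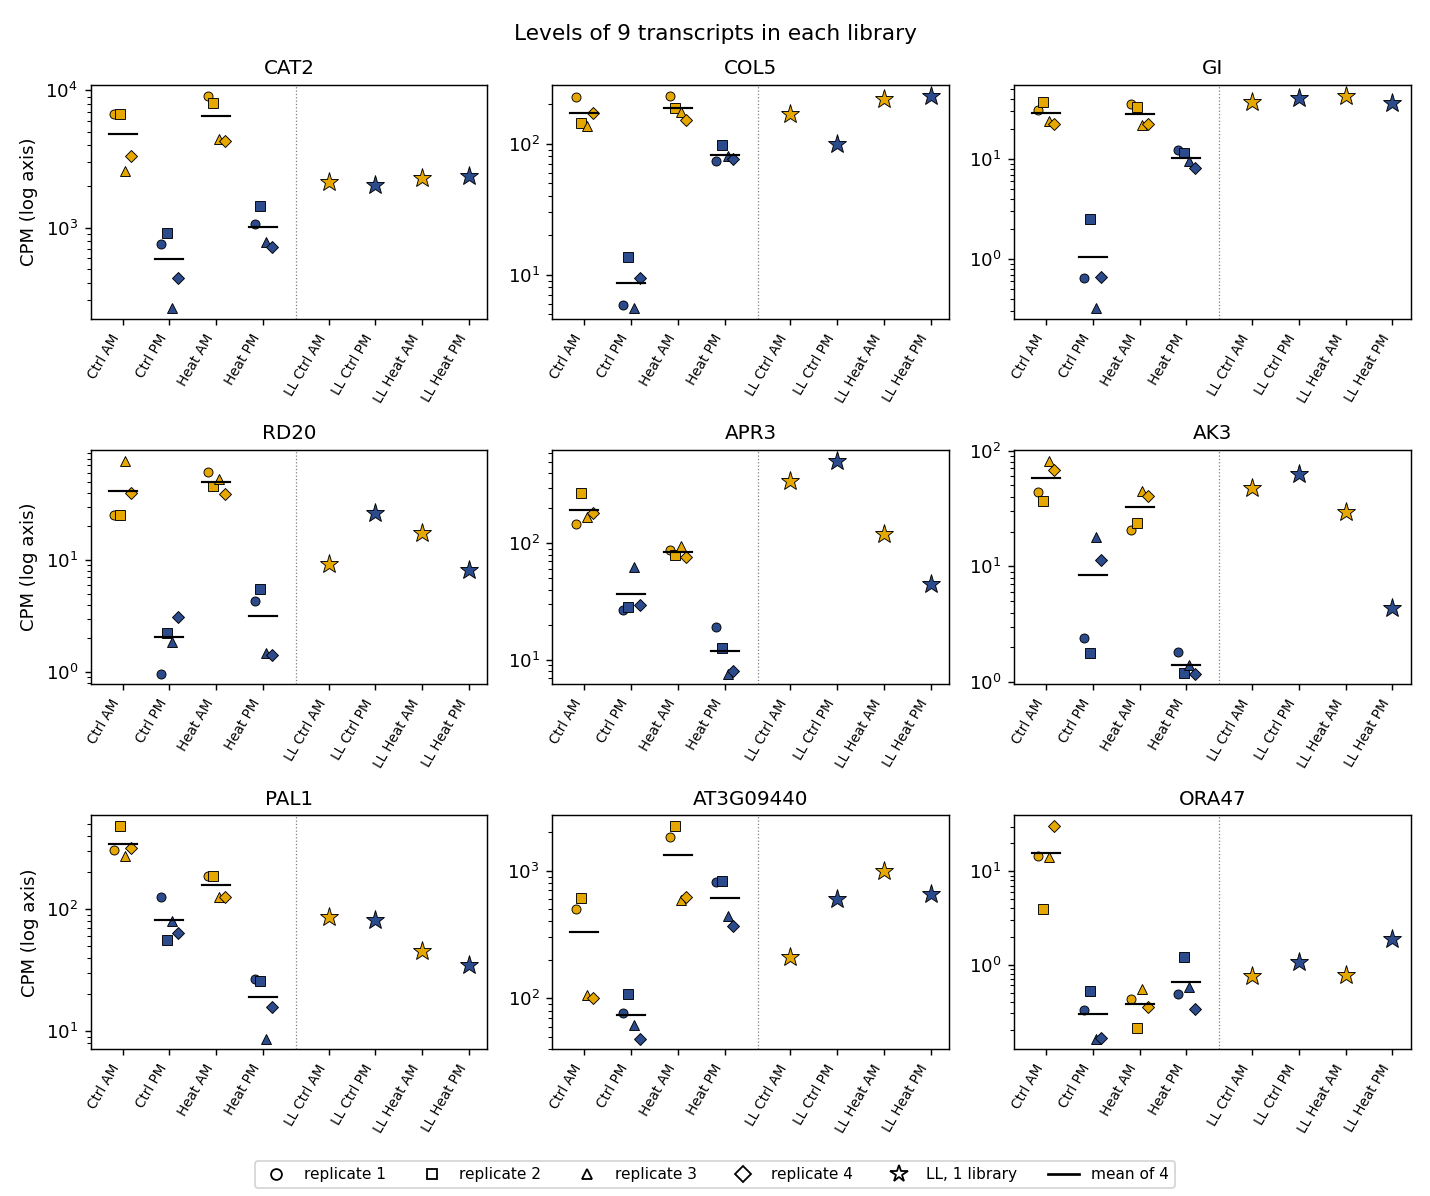
CPM on a log axis (vertical) in each diel library (4 symbols per group, one per replicate number, with the mean of 4 as a line) and in each LL library (stars, 1 per condition), for 9 of the 58 transcripts; yellow is AM and blue is PM. CAT2 and GI sit at like levels in the 4 LL libraries, APR3 and AK3 are low in LL Heat PM, and ORA47 is high in Control AM alone.

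The label of the set rests on L, a mean over an unheated and a heated pair, and the pairs differed. In the unheated LL pair 46 of the 58 had the lower value in the AM, none was 2-fold higher in the AM (2.8% of the 21404 tested loci were) and 4 were at least 2-fold higher in the PM (6.9%, where 4.65% of loci were). In the heated LL pair 14 of the 58 (24.1%) were at least 2-fold higher in the AM, where 10.8% of loci were, and 4 were at least 2-fold higher in the PM (6.9%, against 9.09%). For 39 of the 58 the AM and PM levels lay within 2-fold in each pair. None of the 58 thus had a 2-fold dawn excess in the unheated LL pair, but 14 had one in the heated pair. For those 14 the description as lost in constant light does not hold after heat. Of the other dawn-high transcripts, 48.2% were at least 2-fold higher in the AM in the unheated pair and 82.7% in the heated pair. These values chose the members and are a description.

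The unheated LL level could lie near the diel day level, near the diel night level or between. On a scale where Control PM is 0 and Control AM is 1 (log2 of CPM plus 1), the mean of the unheated LL pair lay at a median of 0.64 for the 58 transcripts and 0.61 for the other dawn-high ones. It was at or above 0.5 in 35 of 58 (60.3%), of which 11 exceeded Control AM, and below 0.5 in 23, of which 2 were under Control PM. Among the other 365 dawn-high transcripts 258 (70.7%) were at or above 0.5, of which 11 exceeded Control AM. The groups of transcripts differed in this. All 9 transcripts of sulfur, methionine and glucosinolate metabolism lay at 0.65 or above, with a median of 0.97, while 2 of 9 transcripts related to abscisic acid, dehydration and cold reached 0.5, with a median of 0.34. CYP81D11, a cytochrome P450, was highest at 1.96, ahead of UGT75B1 at 1.74 and UGT73C1 at 1.5, which encode glucosyltransferases. The glycine-rich protein AT4G30460 was lowest at -0.34 and PAL1 lay at 0.03. These groups were drawn up by known role after the values were seen, so they carry no test.

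**Figure D2:**
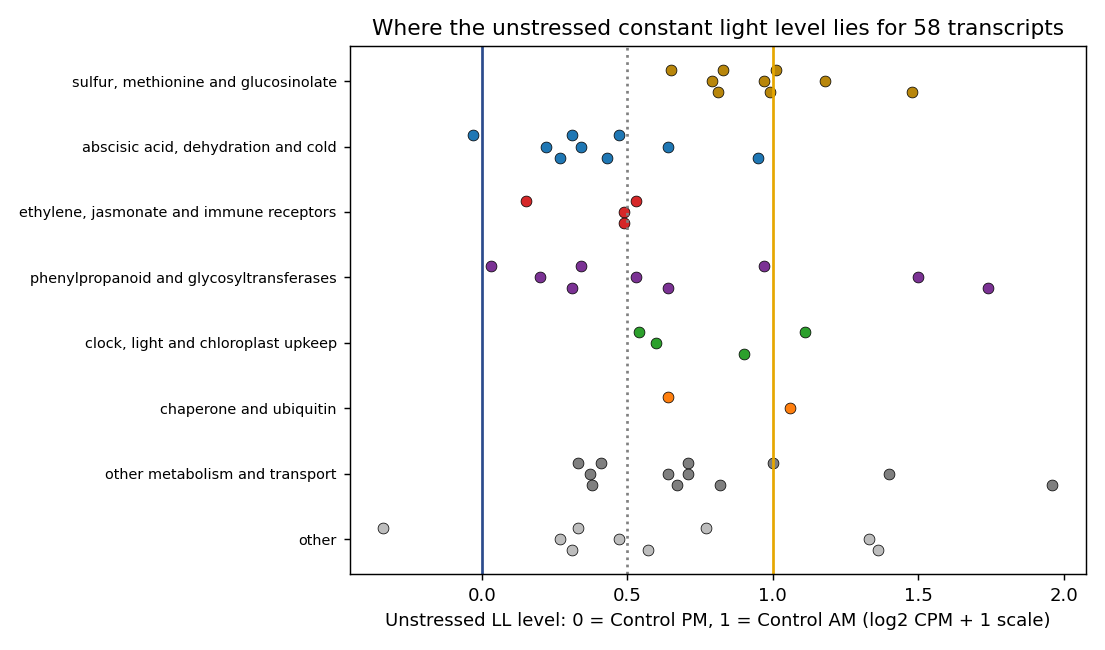
Position of the unheated LL level (mean of LL Control AM and LL Control PM) on a log2 scale where 0 is Control PM (blue line) and 1 is Control AM (yellow line), 1 point per transcript, in rows by role; the dotted line marks 0.5. The 9 sulfur, methionine and glucosinolate transcripts lie between 0.65 and 1.48, and the abscisic acid, dehydration and cold transcripts between -0.03 and 0.95.

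The heated diel libraries took no part in the choice, and they show whether the dawn excess was there in other seedlings. It was. In Heat AM 55 of the 58 transcripts (94.8%) were higher than in Heat PM and none was lower, where 19% of all tested loci were higher, 18% lower and 36.9% either. The count of 0 lower transcripts was the same at an unadjusted p under 0.05 and with DESeq2. The call was an adjusted p under 0.05 and a log2 difference over 0.5 with edgeR's quasi-likelihood test across all 21404 loci. In 55 of 58 all Heat AM libraries lay above all Heat PM libraries, which held for 20.9% of all tested loci. The median log2 difference was 2.32, against 3.07 in the other dawn-high transcripts, of which 99.5% were called higher, and 0.00 over all tested loci. The largest difference was that of TBL26, of a family whose members acetylate cell wall polysaccharides, with 27.3, 62.3, 28.8 and 36.2 CPM in Heat AM and 1.89, 1.2, 1.21 and 1.09 in Heat PM. No library of one group reached the other, and the log2 difference was 4.80 (SE 0.40, edgeR adjusted p = 1.08e-07). The 3 transcripts not called were ORA47, LTI78 and AT3G09440. UGT75B1 was called by the narrowest margin (log2 difference 1.16, SE 0.45, edgeR adjusted p = 0.0496), and it missed the threshold without replicate 1 (0.123), replicate 2 (0.0526) or replicate 4 (0.151). UGT73C1 (log2 difference 2.38, edgeR adjusted p = 0.0192) missed it without replicate 1 (0.0767) or replicate 2 (0.0619).

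**Figure D3:**
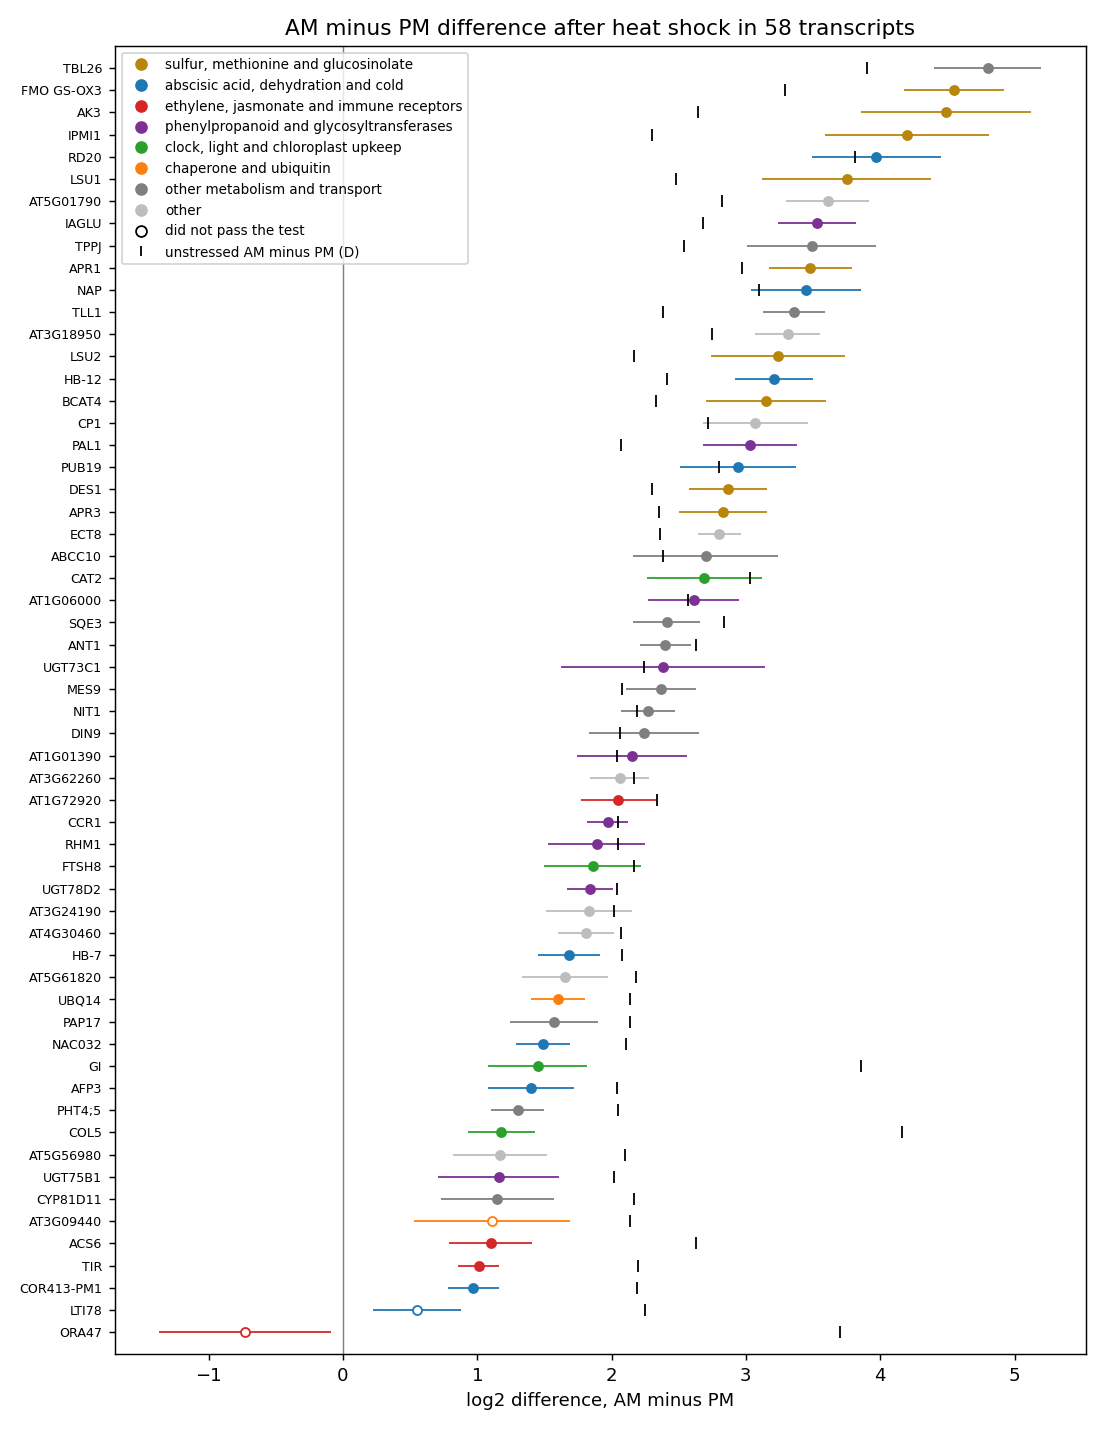
Log2 difference Heat AM minus Heat PM (horizontal) with its SE for each of the 58 transcripts, coloured by role; open symbols did not pass the test and black ticks give D, the unstressed difference that chose them. TBL26 is highest at 4.80, ORA47 lowest at -0.73, and 57 of 58 points lie above 0.

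Heat itself changed 14 of the 58 transcripts in the AM and 16 in the PM. In the AM 1 of the 58 rose (1.72%, where 4.57% of all tested loci and 11% of the other dawn-high transcripts rose). Another 13 were lower past the same thresholds (22.4%, against 8.99% of all loci and 5.21% of the other dawn-high transcripts). Together these were 24.1%, against 13.6% and 16.2%. In the PM 9 fell (15.5%, against 10.5% of all loci and 8.77% of the other dawn-high transcripts). In the PM 7 were higher (12.1%, against 7.65% and 18.4%). Together these were 27.6%, against 18.2% of all loci and 27.1% of the other dawn-high transcripts, so the PM share was not particular to the 58. Low AM and high PM values after heat are favoured by a choice on high Control AM and low Control PM, so those directions are given as values without p. The counts moved with the replicates used. The AM count of 14 became 6 without replicate 2 or replicate 3 (8.35% and 6.82% of all loci) and 4 without replicate 4 (5.09%). The PM count of 16 became 9 without replicate 3 or replicate 4 (4.69% and 4.98% of all loci). With the replicate number as a block no call was lost. The AM count was then 19, with 17 lower and 2 higher, where 20.1% of all loci were called. The transcripts gained as lower were AT1G72920, IPMI1, RHM1 and AT1G01390, and UGT73C1 was gained as higher (adjusted p = 0.00492). The blocked PM count was 26, with 12 lower and 14 higher, where 26.4% of all loci were called. The falls gained were those of BCAT4 (adjusted p = 0.0405), HB-12 (0.0332) and RHM1 (0.0462), and the transcripts gained as higher were CAT2, FTSH8, SQE3, AT5G61820, AT5G56980, UGT73C1 and UGT75B1. Within replicates 1 and 2 alone 12 AM responses and 11 PM responses were called, where 6.18% and 3.31% of all loci were. Within replicates 3 and 4 alone the counts were 28 and 32, where 19.2% and 38.5% of all loci were called.

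**Figure D4:**
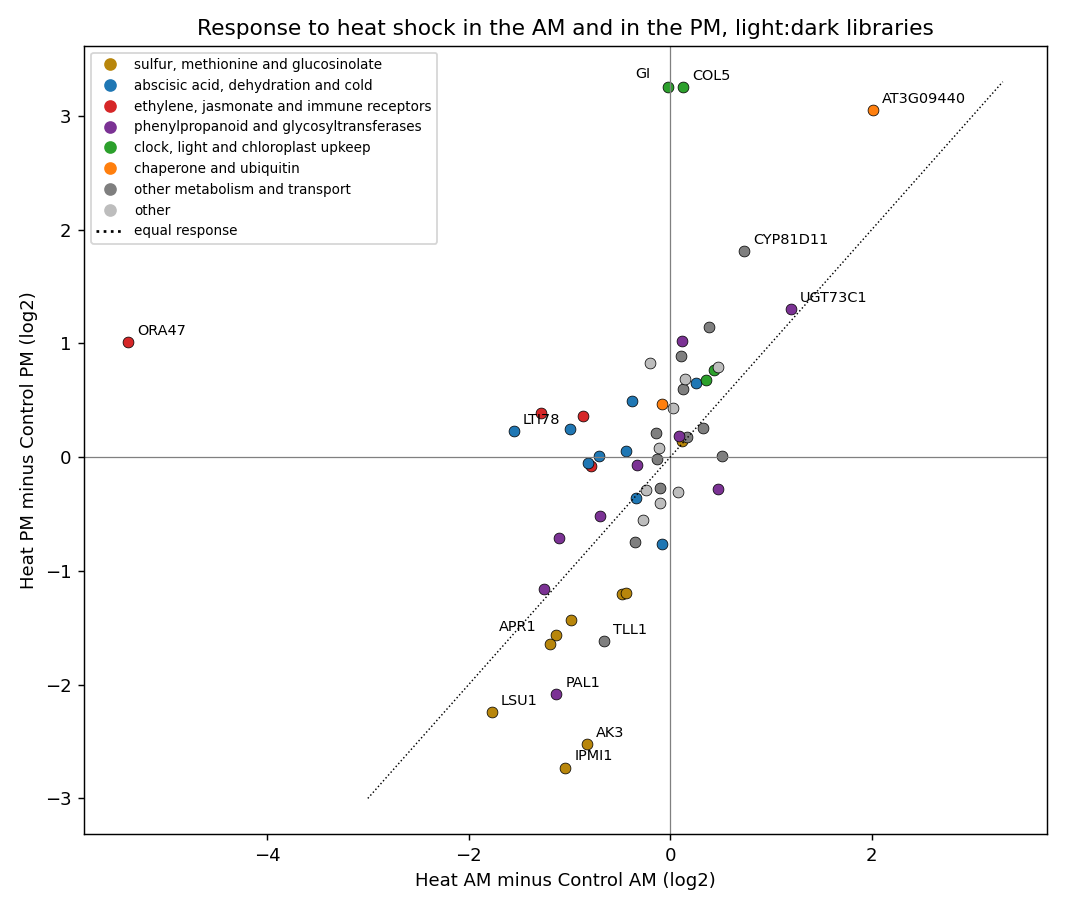
Log2 change with heat in the AM (horizontal, Heat AM minus Control AM) and in the PM (vertical, Heat PM minus Control PM) for the 58 transcripts, coloured by role; the dotted line marks equal responses. The sulfur, methionine and glucosinolate transcripts other than DES1 lie at lower left, COL5 and GI stand at 3.25 in the PM, and ORA47 stands at -5.38 in the AM.

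Of the 58 transcripts 9 belong to responses to abscisic acid (ABA), dehydration and cold. ABA is the hormone that closes stomata and induces protective genes when water is short, and it acts through bZIP factors that bind the G-box, CACGTG. RD20 encodes a caleosin of lipid bodies induced by drought, AFP3 a protein that binds ABI5-type bZIP factors, and NAP a NAC factor of leaf senescence. Of the 250 bases before the gene start in the RefSeq annotation, searched on both strands (the motif is its own reverse complement), a G-box lay in 10 of the 58 (17.2%), in 16.9% of the other dawn-high transcripts and in 7.37% of all tested loci with a window. AAATATCT, the evening element bound by CCA1 and its relatives, lay in 4 of 58 (6.9%, against 4.91% of all), and GAANNTTC, a short form of the heat shock element that overlaps neither, in 8 of 58 (13.8%, against 9.34%). A match says only that the letters are there. The windows of 3 ABA-related transcripts and of TLL1, a lipase-like protein, are shown because their G-boxes lie from close to the start to the far end of the window. They are RD20 (chr2:14146556-14146805, minus strand), AFP3 (chr3:11384146-11384395, minus strand), NAP (chr1:26121830-26122079, plus strand) and TLL1 (chr1:17123535-17123784, plus strand) on TAIR10.1, each written from 5′ to 3′ along the gene with the G-box in capitals.
RD20: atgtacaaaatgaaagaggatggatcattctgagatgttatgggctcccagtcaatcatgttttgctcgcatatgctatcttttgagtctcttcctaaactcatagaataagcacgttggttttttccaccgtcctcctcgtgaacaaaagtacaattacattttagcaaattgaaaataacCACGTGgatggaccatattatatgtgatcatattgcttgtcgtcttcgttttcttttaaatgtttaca
AFP3: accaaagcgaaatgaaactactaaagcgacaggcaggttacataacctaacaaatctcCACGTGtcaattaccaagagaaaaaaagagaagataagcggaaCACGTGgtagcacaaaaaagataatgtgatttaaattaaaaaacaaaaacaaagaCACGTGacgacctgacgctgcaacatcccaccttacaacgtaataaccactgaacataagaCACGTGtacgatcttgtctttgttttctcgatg
NAP: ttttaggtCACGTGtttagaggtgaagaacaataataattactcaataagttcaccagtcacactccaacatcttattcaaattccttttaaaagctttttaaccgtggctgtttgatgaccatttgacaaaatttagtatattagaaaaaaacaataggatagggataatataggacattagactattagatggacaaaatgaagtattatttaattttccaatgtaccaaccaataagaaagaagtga
TLL1: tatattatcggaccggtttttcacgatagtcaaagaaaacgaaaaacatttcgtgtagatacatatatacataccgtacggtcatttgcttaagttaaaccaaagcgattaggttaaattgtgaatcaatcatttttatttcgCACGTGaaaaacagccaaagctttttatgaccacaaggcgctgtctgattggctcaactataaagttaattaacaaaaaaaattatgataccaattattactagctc
AFP3 carries 4 copies, whose first bases lie 192, 149, 94 and 33 bases before the gene start, while RD20 has 1 at 68, TLL1 1 at 107 and NAP 1 at 242.

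RD20 was the most dawn-high of the ABA group, with 25.1, 25, 76.8 and 39.6 CPM in Control AM and 0.972, 2.25, 1.85 and 3.13 in Control PM. After heat it held 61.1, 46.1, 52.9 and 38.9 CPM in Heat AM and 4.29, 5.52, 1.47 and 1.42 in Heat PM, so that neither pair of groups overlapped. The heated difference was 3.97 on the log2 scale (SE 0.48, edgeR adjusted p = 5.67e-06). In LL the order of AM and PM turned with heat, from 9.15 CPM in LL Control AM and 26.2 in LL Control PM to 17.5 in LL Heat AM and 8.07 in LL Heat PM. NAP was near its diel night level in unheated LL, with 1.88 and 4.61 CPM. Control AM held 35.2, 13.7, 43.4 and 48.8 CPM and Control PM between 2.09 and 3.84. In heated LL it held 7.79 and 7.56 CPM, above all Heat PM libraries (2.32, 2.46, 2.42 and 2.94). HB-12, a homeobox factor induced by ABA, had the largest AM excess of the unheated LL pair, with 22.7 CPM in LL Control AM and 11.6 in LL Control PM.

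LTI78 (also RD29A), a hydrophilic protein induced by cold and drought, was one of the 3 transcripts whose dawn excess was not detected after heat. Control AM held 40.3, 64, 92.4 and 61.8 CPM and Control PM 9.46, 19.7, 11 and 11.2. Heat AM held 22.7, 23.4, 20.8 and 21.3 and Heat PM 22.2, 21.4, 8.1 and 8.5, so that replicates 1 and 2 were nearly equal at both times and replicates 3 and 4 were not. The heated difference was 0.55 (log2, SE 0.33, edgeR adjusted p = 0.205), with 0.08 within replicates 1 and 2 and 1.34 within replicates 3 and 4 (adjusted p = 0.000108). LTI78, COR413-PM1, a cold-regulated membrane protein, and NAC032, a stress-induced NAC factor, were lower in Heat AM than in Control AM by log2 values of -1.55, -0.99 and -0.71. COR413-PM1 still kept a heated AM excess of 0.97 (SE 0.19, edgeR adjusted p = 0.000715). AFP3, HB-12, HB-7 and PUB19, a ubiquitin ligase of the drought response, shared a pattern in Control AM, where replicates 3 and 4 exceeded replicates 1 and 2. HB-7 held 34.3 and 35.3 CPM there in replicates 1 and 2 and 77.3 and 66 in replicates 3 and 4. In a list of cold and dehydration factors, of which LTI78 is the only member here, 15 genes were tested. Of these, 4 were higher and 5 lower in Heat AM than in Heat PM (19% and 18% of all loci). The list as a whole thus had no such dawn excess.

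Transcripts of sulfur assimilation, methionine and glucosinolate synthesis kept the largest dawn excess after heat among the role groups, with a median log2 difference of 3.48. All 9 were called higher, where 19% of all tested loci and 99.5% of the other dawn-high transcripts were. APR1 and APR3 encode APS reductases, which reduce activated sulfate in the chloroplast. LSU1 and LSU2 are small proteins induced by lack of sulfur, and DES1 degrades cysteine in the cytosol. AK3 is an aspartate kinase of the pathway to lysine, threonine and methionine. BCAT4 and IPMI1 act early in the chain elongation of methionine, and FMO GS-OX3 oxidizes the side chain of glucosinolates, the sulfur-rich defence compounds of the cabbage family. In LL without heat the 9 lay nearer the diel day level than the night level, at 0.65 (DES1) to 1.48 (APR3) on the scale where Control AM is 1. APR3 held 342 CPM in LL Control AM and 513 in LL Control PM, above each of the 4 Control AM libraries (146, 273, 169 and 181).

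Of the 9, 6 fell with heat at night: APR1, APR3, AK3, LSU1, IPMI1 and FMO GS-OX3. Among all tested loci 10.5% fell, and among the other dawn-high transcripts 8.77%. The group was drawn up after the values were seen, so its share carries no test. LSU1 held 1.48, 0.293, 2.21 and 0.274 CPM in Control PM and 0.204, 0.133, 0.21 and 0.332 in Heat PM. In replicate 4 it was thus not lower. APR1 held 12.1, 8.14, 23.6 and 11.6 CPM in Control PM and 7.2, 4.79, 3 and 3.51 in Heat PM, and all heated libraries lay below all controls. The change was -1.56 (log2, SE 0.29, edgeR adjusted p = 0.00241). AK3 held 2.41, 1.79, 17.9 and 11.3 CPM in Control PM and 1.81, 1.2, 1.42 and 1.19 in Heat PM, which overlap. Its night level before heat was thus high in replicates 3 and 4 alone, and the fall of -2.52 (SE 0.61, edgeR adjusted p = 0.00979) was -0.40 within replicates 1 and 2 (0.335). The same holds for IPMI1, with 1.69, 1.33, 11.4 and 6.26 CPM in Control PM and 0.57 to 1.07 in Heat PM. Its fall was -2.73 (SE 0.60, edgeR adjusted p = 0.00605) and -0.67 within replicates 1 and 2 (0.276). Without replicate 3 the falls of AK3 (adjusted p = 0.112), IPMI1 (0.094), LSU1 (0.21), FMO GS-OX3 (0.133) and APR3 (0.0518) missed the threshold. Without replicate 4 those of AK3 (0.0985), IPMI1 (0.0699) and FMO GS-OX3 (0.0936) did, and without replicate 1 that of LSU1 (0.134). LSU2 (-1.19, edgeR adjusted p = 0.0961) and BCAT4 (-1.20, 0.0581) were lower without passing the test, and DES1 stood at 0.14 (0.764).

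In the AM 4 of the 9 were lower after heat past the thresholds, namely APR1, APR3, LSU1 and FMO GS-OX3. Among all tested loci 8.99% were, and among the other dawn-high transcripts 5.21%. The replicate block added IPMI1. The other 4 did not pass, and DES1 stood at 0.12 (log2). The Heat AM mean of each of the 9 was above its Control PM mean, although the lowest Heat AM library of LSU1 (1.4 CPM) and of IPMI1 (6.62) lay below the highest Control PM library (2.21 and 11.4). APR1 went from 94.8, 123, 115 and 126 CPM in Control AM to 51.5, 51.6, 56.4 and 49.8 in Heat AM, and APR3 from 146, 273, 169 and 181 to 87.3, 79.6, 94.6 and 75.9. No library overlapped between Control AM and Heat AM in either. The largest heated AM to PM difference of the group was that of FMO GS-OX3, with 7.31, 10.5, 9.5 and 14.5 CPM in Heat AM and 0.383, 0.399, 0.526 and 0.475 in Heat PM (log2 difference 4.55, SE 0.37, edgeR adjusted p = 7.02e-08). A list of nitrate and sulfate assimilation that includes APR1 and APR3 held 17 tested genes. Of these, 6 were higher in Heat AM than in Heat PM and none lower (19% and 18% of all loci). With heat in the PM 5 fell and 1 rose (10.5% and 7.65% of all loci). APR1 and APR3 are among the 6 and among the 5.

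All 9 were lowest in LL in the heated PM library. Summed cell type markers moved as well: the root markers held 23.3, 33.2, 25.9 and 7.06 CPM in LL Control AM, LL Control PM, LL Heat AM and LL Heat PM. Mesophyll and guard cell markers were also lowest in LL Heat PM (30600 and 132 CPM) and flower and seed markers highest (13). Mesophyll markers held 58800, 35900, 51800 and 30600 CPM in the same order, so they were lower in the PM without heat as well. Vascular markers went the other way, with 196, 203, 246 and 256 CPM in that order. The part of these in the values was not tested. LSU2 held 13.1 CPM in LL Control AM, 25.5 in LL Control PM, 15.9 in LL Heat AM and 1.13 in LL Heat PM. IPMI1 held 18.9, 22.8, 7.53 and 0.378 CPM in the same order, and AK3 47.6, 62.6, 29.5 and 4.41. In each of them the heated PM library was the low one and the other 3 were closer together. Over the 9, the median log2 change with heat in LL was -3.50 in the PM and -1.11 in the AM, and 8 of the 9 were at least 2-fold lower in the PM. Of all 58 transcripts 21 (36.2%) were at least 2-fold lower with heat in the LL PM, where 9.66% of all tested loci and 40% of the other dawn-high transcripts were. With heat in the LL AM 11 were (19%, against 0.981% of all loci and 1.92% of the other dawn-high transcripts). At least 2-fold higher were 3 in the LL AM (5.17%, against 3.21% and 5.21%) and 2 in the LL PM (3.45%, against 8.03% and 3.29%). All 4 LL libraries entered the choice of members, so these shares are a description. The AM excess of the heated LL pair was 2.99 for LSU2, 2.63 for IPMI1, 2.49 for AK3 and 1.70 for FMO GS-OX3 (log2). In LL Heat PM, the library with the fewest reads, these values rest on 9, 3, 35 and 5 reads in that order. The 1 CPM added before the ratio therefore bears on their size. Of the 14 transcripts that were 2-fold higher in the AM in the heated LL pair, 7 belong to this group. Outside it were TLL1 at 2.02, IAGLU, which joins auxin to glucose, at 1.82, AT4G30460, TBL26, AT1G06000, RD20 and PAP17.

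**Figure D5:**
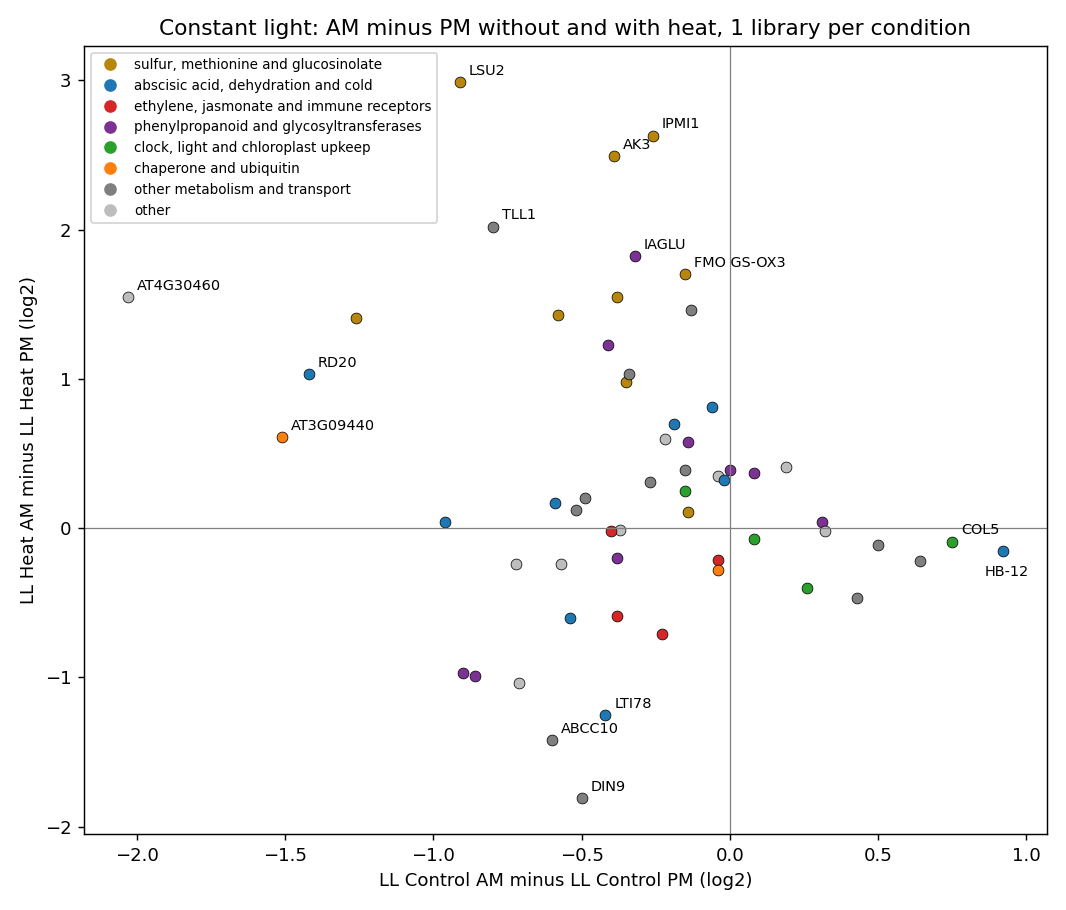
AM minus PM log2 difference in constant light without heat (horizontal) and with heat (vertical) for the 58 transcripts, coloured by role, with 1 library per condition and no error. All 9 sulfur, methionine and glucosinolate transcripts lie left of 0 without heat and above 0 with heat, while DIN9, ABCC10 and LTI78 lie below -1 with heat.

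TLL1 behaved like that group at night. It held 69.1, 35.6, 53.7 and 44.7 CPM in Control PM and 22.3, 18.6, 11.2 and 13.8 in Heat PM, with no overlap, and its fall of -1.62 (log2, SE 0.22, edgeR adjusted p = 0.000197) was also called within replicates 1 and 2 (-1.35) and within replicates 3 and 4 (-1.98). PAL1, the entry enzyme of phenylpropanoid synthesis, which turns phenylalanine into cinnamic acid, fell at night too. It held 125, 55.9, 80.3 and 64 CPM in Control PM and 26.8, 25.6, 8.67 and 15.7 in Heat PM, again with no overlap. The log2 change was -2.08 (SE 0.34, edgeR adjusted p = 0.000824), with -1.79 within replicates 1 and 2 and -2.56 within replicates 3 and 4. In LL without heat PAL1 held 86.9 and 82.3 CPM, close to the diel night mean, and in LL with heat 45 and 34.7.

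The other transcripts of phenylpropanoid and sugar conjugation did not share one pattern. CCR1, a reductase of lignin synthesis, kept nearly the same values with and without heat, with 209, 237, 179 and 196 CPM in Control AM and 230, 252, 204 and 191 in Heat AM. UGT78D2, which adds glucose to flavonols and anthocyanins, was 1.84 higher in Heat AM than in Heat PM (log2, SE 0.17, edgeR adjusted p = 2.81e-07), as was RHM1, which makes the sugar donor UDP-rhamnose, by 1.89 (SE 0.36, 0.00049). AT1G06000, annotated as a UDP-glycosyltransferase, fell in the PM by 1.16 (SE 0.33, edgeR adjusted p = 0.0222), a call lost without replicate 1 (0.0827), replicate 3 (0.161) or replicate 4 (0.151). A list of the flavonoid pathway held 16 tested genes, PAL1 and UGT78D2 among them. Of these, 14, including both, were higher in Heat AM than in Heat PM and none lower (19% and 18% of all loci). With heat in the PM 10 fell, including PAL1 (10.5% of all loci).

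UGT75B1, UGT73C1, ABCC10 and AT5G61820 were instead higher in the PM than in the AM in each LL pair. They are among the members with the lowest L, which is made from these same values. Members of other roles, such as AFP3 and ACS6, were also higher in the PM in each pair. UGT75B1 and UGT73C1 encode glucosyltransferases of benzoates and of foreign or hormone compounds, and ABCC10 an ABC transporter. UGT75B1 held 263 CPM in LL Control AM, 490 in LL Control PM, 117 in LL Heat AM and 229 in LL Heat PM, where Control AM held 180, 213, 41.9 and 74. ABCC10 held 65.5, 100, 26.8 and 73.2 CPM in LL in that order and 47, 78.8, 19.2 and 21.7 in Control AM. AT5G61820, annotated as a stress up-regulated Nod 19 protein, held 435, 715, 370 and 765 CPM in LL. The AM minus PM values of these 3 and UGT73C1 ran from -0.60 to -0.90 without heat and from -0.97 to -1.42 with heat (log2). In Control AM they were higher in replicates 1 and 2 than in replicates 3 and 4: UGT73C1 held 34, 41.6, 3.52 and 6.32 CPM in Control AM and 6.58, 6.87, 0.564 and 0.933 in Control PM. Its dawn excess was of like size within each pair of replicates, although the level moved several-fold between the pairs. DIN9, a mannose-6-phosphate isomerase first described as dark-induced, had the lowest L, with 11.3, 16.5, 7.02 and 27.2 CPM in LL. It was dawn-high in diel conditions also after heat, with 25, 27.9, 27.3 and 21.7 CPM in Heat AM and 6.36, 6.59, 4.99 and 3.61 in Heat PM (log2 difference 2.24, SE 0.41, edgeR adjusted p = 0.000325). Of the 13 tested genes in a list of dark- and starvation-induced transcripts, DIN9 was the 1 that was higher in Heat AM, and 9 were lower. Among all tested loci 19% were higher and 18% lower.

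COL5 and GI had the largest log2 values with heat at night among the 58. COL5 is a CONSTANS-like zinc finger protein, and GI (GIGANTEA) is a large clock protein that peaks in the afternoon and promotes flowering. COL5 held 229, 143, 137 and 171 CPM in Control AM, 5.83, 13.6, 5.52 and 9.44 in Control PM, 233, 186, 173 and 152 in Heat AM and 74.3, 97.8, 79.8 and 76.7 in Heat PM. The 4 heated night libraries lay far above the unheated ones and below all AM libraries. Heat moved it by 0.13 in the AM but by 3.25 at the PM time (log2), and the heated AM excess was 1.18 (SE 0.25, edgeR adjusted p = 0.00129) against a D of 4.16. GI held 0.648, 2.54, 0.322 and 0.658 CPM in Control PM, 12.4, 11.4, 9.62 and 8.07 in Heat PM and 21.7 to 35.9 in Heat AM. Heat moved it by -0.02 in the AM but by 3.25 at the PM time (log2), and its heated AM excess was 1.45 (SE 0.37, edgeR adjusted p = 0.00495). In LL, GI held 37.2, 41.3, 43.2 and 36 CPM, above the Control AM mean of 28.7 whatever the time and temperature. Of the 9 evening-phased clock genes tested, GI was the 1 that was higher in Heat AM than in Heat PM, and 7 were lower. Among all tested loci 19% were higher in that comparison and 18% lower. All 4 values of COL5 in LL (167, 98.8, 218 and 232 CPM) were above those of Heat PM.

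CAT2 and FTSH8 serve the chloroplast and the photorespiratory pathway by day. CAT2, the leaf peroxisome catalase that removes hydrogen peroxide made in photorespiration, was the most abundant by CPM. It held 6680, 6680, 2610 and 3320 CPM in Control AM and 764, 912, 260 and 430 in Control PM. Heat AM held 9170, 8130, 4410 and 4260 and Heat PM 1070, 1440, 787 and 731, with no overlap (log2 difference 2.69, SE 0.43, edgeR adjusted p = 0.000108). Replicates 1 and 2 were high in each of these 4 groups, and the heated difference was 2.78 within them and 2.51 within replicates 3 and 4. In LL the 4 values lay between 2040 and 2400 CPM. FTSH8, a thylakoid protease that helps to replace damaged photosystem II protein, had a heated difference of 1.86 (log2, SE 0.36, edgeR adjusted p = 0.000611) and LL values between 228 and 384 CPM.

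AT3G09440, an HSP70 chaperone, was the 1 member that rose with heat in the AM, and with the replicate block UGT73C1 was called there as well. AT3G09440 was also called higher with heat in the PM, by 3.05 (log2), a direction that the choice of members favours. Control AM held 499, 612, 107 and 99.8 CPM, Control PM 77.3, 108, 62 and 48.2, Heat AM 1850, 2240, 587 and 627 and Heat PM 816, 825, 443 and 369. Replicates 1 and 2 were the high ones in each group. The AM rise was 2.01 (log2, SE 0.59, edgeR adjusted p = 0.0309), and it missed the threshold when any 1 replicate was left out (0.0634 to 0.101) and when the AM groups were fitted alone (0.0795). The heated AM to PM difference of 1.11 (SE 0.58, edgeR adjusted p = 0.136) was called with the replicate number as a block (0.94, adjusted p = 0.00886) and within each pair of replicates (1.32 and 0.58). The unheated LL PM library held 605 CPM of this transcript and the unheated LL AM library 211, beside the raised HSFA2 and HSP101 of that library. HSP70 genes are similar in sequence, as are the polyubiquitin genes that include UBQ14. Only reads that fit 1 gene were kept, so the counts of both may be too low. UBQ14 held 608, 646, 481 and 451 CPM in Heat AM and 185, 248, 134 and 153 in Heat PM (log2 difference 1.60, SE 0.20, edgeR adjusted p = 8.28e-06).

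ORA47, an ERF-type transcription factor induced by wounding and jasmonate, was high in Control AM only. It held 14.5, 3.96, 14.1 and 30.5 CPM there, 0.161 to 0.521 in Control PM, 0.212 to 0.547 in Heat AM and 0.332 to 1.2 in Heat PM. In LL it held 0.763, 1.07, 0.771 and 1.89 CPM. The heated AM and PM libraries overlapped (log2 difference -0.73, SE 0.64, edgeR adjusted p = 0.394), and the value after heat in the AM was -5.38 on the log2 scale. ACS6, an enzyme of ethylene synthesis, was lower in Heat AM as well, with 30.9, 33.6, 52.7 and 99.1 CPM in Control AM and at most 26.9 in Heat AM. Its heated AM excess was 1.1 (SE 0.31, edgeR adjusted p = 0.00954). The immune receptor-like transcript TIR held 197, 137, 160 and 180 CPM in Control AM and 115, 80.9, 95.5 and 79.3 in Heat AM, with no overlap, and was 1.01 higher in Heat AM than in Heat PM (SE 0.15, edgeR adjusted p = 3.94e-05).

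The response to heat differed between the times of day in 4 of the 58 (6.9%). Of all tested loci 0.425% differed, and of the other dawn-high transcripts 5.21%. In each of the 4 the PM value was the higher one, as in 0.28% of all loci and 4.93% of the other dawn-high transcripts. The 4 were ORA47, GI, COL5 and TIR, with PM minus AM values of 6.39, 3.27, 3.13 and 1.22 (log2). The choice on Control AM and Control PM favours this direction, so no p is given. In the other direction the count was 0 with edgeR and with DESeq2, and 3 at an unadjusted p under 0.05 with edgeR. The count was 7 with the replicate block, which added LTI78, COR413-PM1 and AT5G56980 (3.26% of all loci were called with it). It was 1 without replicate 1 or replicate 3, 2 without replicate 4 and 0 within replicates 1 and 2. Within replicates 3 and 4 it was 24, where 10.9% of all loci were called. Of these, 13 had the higher value in the PM and 11 the lower. The count of 0 in the other direction thus did not hold within replicates 3 and 4.

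The remaining transcripts kept their dawn excess after heat, and 4 of those described here were called higher with heat in the PM. SQE3, a squalene epoxidase of sterol synthesis, held 308, 302, 297 and 221 CPM in Heat AM and 59.1, 63.3, 47.6 and 41.8 in Heat PM. NIT1, a nitrilase that shares sequence with its neighbours NIT2 and NIT3, held 1150, 1600, 1100 and 1040 CPM in Heat AM and 209 to 305 in Heat PM. The groups did not overlap in either, and the log2 differences were 2.41 (SE 0.25, edgeR adjusted p = 9.45e-07) and 2.27 (SE 0.20, 2.45e-07). The 4 called higher in the PM were PAP17, PHT4;5, CYP81D11 and AT3G62260, and with the replicate block SQE3 was as well. PAP17, a phosphatase induced by lack of phosphate, and PHT4;5, a phosphate transporter, were higher in Heat PM than in Control PM by log2 values of 1.14 and 0.89. CYP81D11 was higher by 1.81 and AT3G62260, a protein phosphatase 2C, by 0.79. ECT8, annotated by its conserved C-terminal region, had one of the smaller SE among the heated comparisons, with 147, 137, 173 and 154 CPM in Heat AM and 24.9, 23.1, 19.6 and 20.4 in Heat PM (log2 difference 2.80, SE 0.16, edgeR adjusted p = 1.35e-09). CP1, a calcium-binding protein, was high in unheated LL, with 277 CPM in LL Control AM and 242 in LL Control PM, and low in heated LL, with 85.7 and 64.4.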

How the data were processed

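RNA-Seq libraries of 16 diel samples (4 groups of 4 replicates) and 4 constant light samples were grouped by their labels. The deposited values are raw counts of reads per locus. The authors aligned reads to TAIR10 with TopHat2 2.1.0 and counted them on the reverse strand with HTSeq 0.6.0, keeping reads that fit 1 gene, so reads shared by near-identical genes are underrepresented. Reads were not realigned here.

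CPM used TMM factors from all 20 libraries (0.771 to 1.27). Loci that reached 10 counts in 1 or more diel libraries were fitted with edgeR 4.0.16 in R 4.3.3 (glmQLFit and glmQLFTest, 4 groups, Benjamini-Hochberg adjustment). Calls needed an adjusted p under 0.05 and an absolute log2 difference over 0.5, with no fold limit for the difference of responses. SE were worked back from the test, as the absolute log2 difference over the square root of F. The common biological coefficient of variation was 0.261. No pair of replicates agreed within sampling noise. The fits were tested on simulated data.

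The replicate numbers come from the labels. Libraries with the same number deviated together from their group means in all 24 pairs (r from 0.117 to 0.792, mean 0.512). Those numbered 1 and 2, or 3 and 4, in different groups did so as well (r from 0.248 to 0.724, mean 0.495). The values thus set 1 and 2 apart from 3 and 4 but do not tell the numbers within a pair apart. The block used the single replicate number, and calls that change with it are named. Alternatives were DESeq2 1.42.0, other scalings, filters and thresholds, the block, and leaving out replicates. Gene names, positions and upstream sequences came from RefSeq on TAIR10.1, where all 58 loci were found.

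The members, the gene lists and the tests were chosen with earlier results of these data known. Named are the 10 members with the largest D, the 10 with the highest Control AM level, the 8 with the lowest L, the 6 smallest and 6 largest heated differences, the 4 nearest each limit on either side, members in the gene lists, and checks of the labels. Other members named, and the groups by role, were chosen after their values were seen.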

Additional observations from a re-analysis of the deposited data

Results flagged for a closer look

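In 10 of 232 groups of 4 replicates (58 transcripts, 4 diel groups) a library lay far from the other 3 by Dixon's ratio, and chance flags about 1 in 20 groups. Replicate 2 of Control AM was high for RHM1 (433 CPM, the others 169 to 206), TBL26 (87.5, the others 36.1 to 37.4) and UGT78D2 (92.1, the others 58.7 to 63.9). Replicate 2 of Control PM was high for GI (2.54 CPM, the others 0.322 to 0.658) and UBQ14 (157, the others 117 to 123). APR3 was high in replicate 3 of Control PM at 63.2 CPM (the others 26.7 to 29.6), and AT3G62260 in replicate 3 of Control AM at 25.6, where the other 3 were at 23.5. In Heat PM, AFP3 was high in replicate 4 at 9.87 CPM (the others 6.59 to 7.1) and TBL26 in replicate 1 at 1.89 (the others 1.09 to 1.21). SQE3 was low in replicate 4 of Heat AM at 221 CPM (the others 297 to 308).

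The response to heat differed between the times of day in 4 transcripts, by the interaction term of the edgeR fit. The PM minus AM value was 6.39 for ORA47, 3.27 for GI, 3.13 for COL5 and 1.22 for TIR (log2), a direction that the choice of members favours.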

How the results depend on the processing

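The count of transcripts higher in Heat AM than in Heat PM stayed between 51 and 57 in all alternatives (55 as reported, 52 to 55 without 1 replicate). For the other counts the cause of a shift was not tested. The AM heat count of 14 was 28 within replicates 3 and 4 (19.2% of all loci) and 3 with the fold limit built into the test (glmTreat, 4.97%). Without 1 replicate it was 4 to 13 (5.09% to 9.31%). The PM heat count of 16 was 26 with the replicate block (26.4% of all loci), 32 within replicates 3 and 4 (38.5%) and 10 with glmTreat (4.43%). Without 1 replicate it was 9 to 17 (4.69% to 19.6%). The count of differing responses (4) was 7 with DESeq2 (2.64% of all loci), 7 with the replicate block (3.26%) and 0 within replicates 1 and 2 (0.0934%). It was 24 within replicates 3 and 4 (10.9%), with 13 higher and 11 lower in the PM, and 1 to 3 without 1 replicate (0.0561% to 0.243%). Fitting the PM groups alone lost the PM falls of FMO GS-OX3 (adjusted p = 0.0632) and LSU1 (0.0673). In the heated AM to PM comparison the block changed no call other than that of AT3G09440.

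The number of transcripts that meet the rule (58) was 31 with a pseudocount of 5, 98 with L from the unheated LL pair only, 157 with D of at least 1.5, 20 with D of at least 2.5, 32 with L of at most 0 and 100 with L of at most 0.6, and 55 to 69 without 1 replicate of the controls. With L from the heated pair only it was 44, of which 31 are among the 58, and 24 met the rule in each pair alone. Upper-quartile scaling gave 57, with 52 shared, and it moved the median change of all loci with heat in the PM from -0.03 to -0.17. The count of 35 transcripts at or above 0.5 in unheated LL stayed within 1.5 times under other scalings and pseudocounts. With 1 library per condition, LL values have no replicate error.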
